A study of Mus musculus with 6 samples.

Results

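YTHDC1 peaks were described in 9 genes that encode myogenic transcription factors: Pax3, Pax7, Six4, Myf5, Myod1, Myog, Mef2a, Mef2c and Mef2d. The genes were chosen by name from 22380 protein-coding genes of the GENCODE M1 annotation of mm9, and all 9 were found there. Peaks inside the interval of each gene were taken from 6 LACE-seq libraries and sorted by strand, exon, intron and untranslated region. The 9 genes held 131 of the 178779 peaks listed over the 6 libraries. LACE-seq maps RNA-binding protein sites by UV crosslinking, immunoprecipitation and reverse transcription that stops at the crosslinked nucleotide, so that a peak marks where YTHDC1 contacted an RNA. Libraries of ASC-48 hr, mouse satellite cells activated by 48 hr in culture, number 4, as each of the biological replicates B1 and B2 was made into technical replicates T1 and T2. Those of C2C12, a mouse myoblast line grown as proliferating cells, came from 2 replicates, made from more cells, which the labels number as biological and the text of the study calls technical. Every library was labelled WT, was UV-crosslinked and was pulled down with the same YTHDC1 antibody, and the labels give neither strain nor age for the ASCs. No library without antibody was analysed here.

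YTHDC1 is the nuclear reader of N6-methyladenosine (m6A), a methyl mark that is placed on adenosines within a short consensus of mRNA and pre-mRNA, and it is known for acting in splicing and nuclear export. Skeletal muscle identity is set by a small group of DNA-binding proteins. Pax3 and Pax7 specify muscle progenitors, Six4 acts upstream, the basic helix-loop-helix factors Myf5, Myod1 and Myog determine and differentiate myoblasts, and the MADS-box factors Mef2a, Mef2c and Mef2d act with them on muscle genes. The question asked of each gene was whether its RNA carried YTHDC1 peaks, where along the RNA they lay and whether replicates called them at the same place.

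Reads of a LACE-seq library run opposite to the RNA they came from. Of 15035 C2C12 peaks called in both replicates, away from G runs, with a sequence that occurs once in the genome and inside genes of 1 strand, 98.3% had reads opposite to the gene. Such peaks are called peaks on the strand of the RNA. The ASC libraries listed 7925 to 19448 peaks and the C2C12 libraries 60540 and 71992. A peak is a 20-nt bin, or several adjoining bins, and its size is the number of reads per bin. Since only peaks are listed, library depth is unknown and the lists end at different sizes, at 4 reads in ASC B2 T2, 5 in the other ASC libraries and 6 in C2C12. ASC B2 T2 stood apart, with the most ASC peaks and a median of 4 reads against 6 in the other ASC libraries. ASC counts over the members are therefore given with and without it. RNA levels were not measured here, so that more RNA, more cells and more YTHDC1 per RNA cannot be told apart. For the same reason the identity of the cells was not checked against marker levels.

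On the strand of the RNA, C2C12 replicate 1 had 39 peaks in the 9 genes and replicate 2 had 49. A peak of replicate 1 is called shared when a peak of replicate 2 on the same strand overlapped it by 1 nt or more. There were 19 shared peaks, in 4 of the 9 genes (44.4%). For comparison, 21.4% of all protein-coding genes had a shared peak. Six4 held 12 of them, Mef2d 4, Myf5 2 and Mef2a 1. Peaks were called in 5 members in replicate 1, where 32.8% of protein-coding genes had one, and in 7 members in replicate 2, where the share was 36.6%. Pax3, Pax7, Mef2c, Myod1 and Myog had no shared peak. The exact 95% interval of 4 of 9 runs from 13.7% to 78.8% and includes the share of all genes. None of the shares over all genes was matched for gene length.

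In ASCs, B1 T1 had 2 peaks in the members and B1 T2 had 4, while B2 T1 had 5 and B2 T2 had 25. Where peaks of several libraries overlapped they were merged into 1 site, which gave 33 sites. Of these, 25 were listed in B2 T2 and in no other ASC library. Sites were found in 7 of 9 members, where 23.9% of protein-coding genes had one. That share is not matched for gene length. Members are as long as 163652 nt (Mef2c), and 16 of the 33 sites were intronic. Without B2 T2 there were 8 sites in 5 members, against 14.9% of protein-coding genes. Only 2 sites were called in at least 2 ASC libraries, 1 in Pax7 and 1 in Mef2a, and none was called in all 4. Over the whole series, 2443 of the 8115 peaks of B1 T1 were shared by all 4 ASC libraries. That count includes G runs and peaks outside protein-coding genes, and B1 T1 had only 2 peaks in the members. Over both cell types the members had 99 sites on the strand of the RNA, and 76 of them were listed in 1 library only. The same count over all genes is not given here. Of all C2C12 peaks in protein-coding genes, 45.3% in replicate 1 and 41.1% in replicate 2 were found again in the other replicate. Both cell types listed 3 sites, 2 in Myod1 and 1 in Mef2d, and for each of them the ASC library was B2 T2. That library was also the only ASC source of 25 of the 33 ASC sites. The overlap of the cell types over all genes is not given here.

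**Figure D1:**
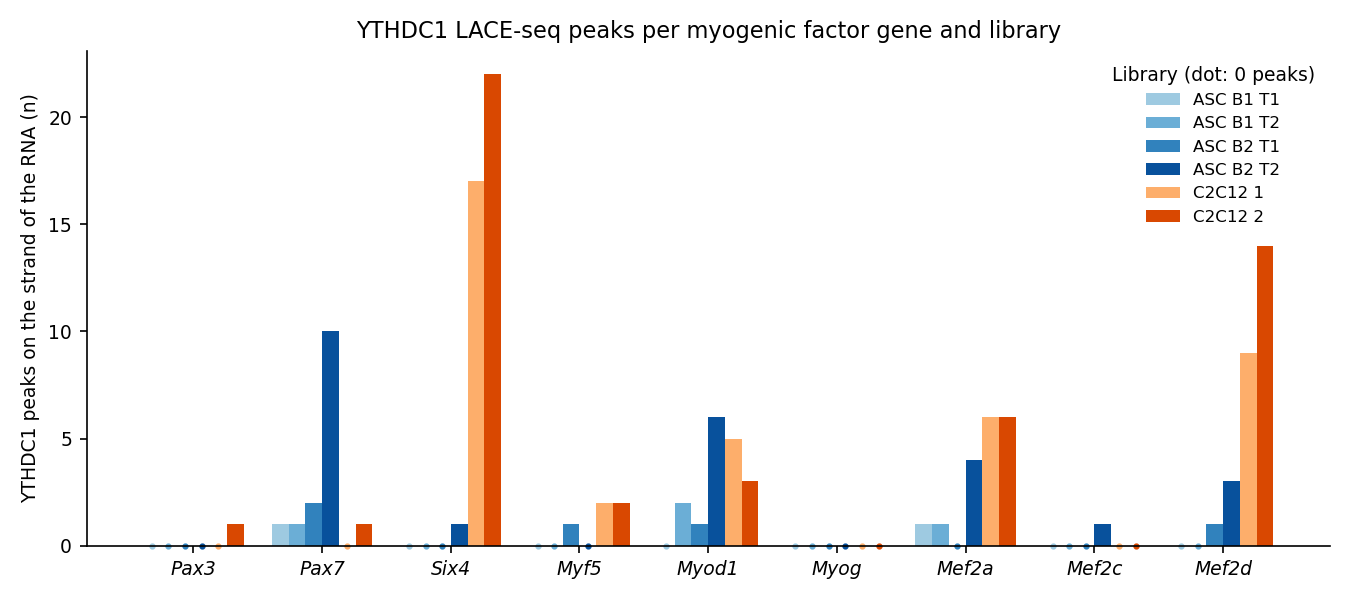
Number of YTHDC1 peaks on the strand of the RNA (y axis) in each of the 9 genes (x axis), 1 bar per library, with a dot where a library listed 0 peaks. Six4 stands highest, with 17 and 22 peaks in the C2C12 libraries and at most 1 in an ASC library, while the tallest ASC bar is the 10 peaks of B2 T2 in Pax7 and Myog is at 0 throughout.

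The sites that the results turn on are shown here as 30 bases of mm9 centred on the peak, on the strand of the RNA and 5′ to 3′, with T for U. Capitals mark words of the m6A consensus, which have 5 letters, a purine at the first and the second place, then AC, then any base other than G. The first group holds shared C2C12 peaks of Six4, in the order of the RNA, the next ones the shared peaks of Myf5 and Mef2d, and the last ones sites of Myod1 and Pax7 that were called in several libraries.
Six4 exon 1, chr12:74213866-74213895, minus strand: gccgccgcgcagcccccactggccttctcg
Six4 exon 1, chr12:74213416-74213445, minus strand: ccggctgagaagcggcacctggccaagatc
Six4 exon 3, chr12:74205096-74205125, minus strand: cagtgcagtggtatacaccgttcctaattc
Six4 exon 3, chr12:74204836-74204865, minus strand: ttgccgagagccagcccgtgtctgcacctg
Six4 exon 3, chr12:74204486-74204515, minus strand: gccggctgtgaAGACCtgggaacGGACAaa
Six4 3′UTR, chr12:74204216-74204245, minus strand: ccgaagcccctctggtcacatcgtgctcgc
Myf5 5′UTR, chr10:106923016-106923045, minus strand: GGACTggcgtgtctccctctctgctgaatc
Myf5 exon 1, chr10:106922936-106922965, minus strand: agttctccccttctgagtacttctatgaag
Mef2d intron 1, chr3:87948396-87948425, plus strand: tccttggcccttatgtccttggcctggagg
Mef2d intron 1, chr3:87954696-87954725, plus strand: tcaagaagtgctcaggcttggcctttctgg
Mef2d exon 3, chr3:87960336-87960365, plus strand: ccactccaacaagctgttccagtatgccag
Mef2d intron 3, chr3:87960856-87960885, plus strand: tgagcAAACAagtcaacccagttcatgcct
Myod1 exon 1, chr7:53632416-53632445, plus strand: tgaatgaggccttcgagacgctcaagcgct
Myod1 3′UTR, chr7:53634056-53634085, plus strand: gctgatccttgagtggccaggcgctcttcc
Pax7 intron 4, chr4:139362136-139362165, minus strand: ttcaaatcctgcccctgctgcttgtcaatg
Of these 15 windows 3 hold such a word within the 30 bases.

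Pax7, the paired-box factor that marks satellite cells, lies on the minus strand at chr4:139292977-139389445. Exons make up 6.08% of its interval. On the strand of its RNA, B1 T1 and B1 T2 each had 1 peak, B2 T1 had 2 and B2 T2 had 10. B2 T2 was the highest, and the other 3 libraries together had 4. Of the 12 ASC sites, 10 were intronic and 2 lay in coding exons. The site that most ASC libraries listed was chr4:139362141-139362160 in intron 4, the long intron that held 8 of the 10 intronic sites. It had 7 reads per bin in B1 T1, 10 in B1 T2 and 6 in B2 T1 (7.67 ± 2.08, SD, n = 3), and it was not listed in B2 T2. The site lay 27294 nt from the start of the gene and 21544 nt from the nearest exon. B2 T1 also listed a peak of 10 reads at chr4:139304961-139304980 in coding exon 8. No other library listed that one.

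Of the 10 peaks of B2 T2 in Pax7, 9 were intronic, and 7 had 4 reads, a size that no other ASC library lists. Its highest peak had 8 reads and lay at chr4:139319621-139319640 in intron 7. When at least 5 reads were required in every library, 5 ASC sites of Pax7 were left, and without B2 T2 there were 2. C2C12 had no Pax7 peak in replicate 1 and a single peak of 6 reads in the 3′UTR in replicate 2. Thus all but 1 of the 13 Pax7 sites came from ASCs, whose libraries listed fewer peaks in all than the C2C12 libraries. The ASC lists run down to 4 or 5 reads, however, and the C2C12 lists only to 6. Of the ASC sites only chr4:139362141-139362160, chr4:139304961-139304980 and chr4:139319621-139319640 reached 6 reads. The 2 cell types are thus not compared here at 1 common size.

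Pax7 also had peaks on the other strand, where the annotation lists no gene. At chr4:139378521-139378540 in intron 4, B1 T1 and B1 T2 each listed 6 reads. At chr4:139302281-139302300 in intron 8, B2 T1 listed 5 reads and B2 T2 listed 6. Another peak, of 4 reads in B2 T2, lay over the 5′UTR. The sites in introns 4 and 8 were thus each called in both technical replicates of 1 biological replicate and in neither of the other. Pax3, the related factor of embryonic muscle progenitors at chr1:78097842-78193709, had no ASC peak and only 1 C2C12 peak, with 7 reads in replicate 2, over an exon of a transcript that has no annotated coding sequence.

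**Figure D2:**
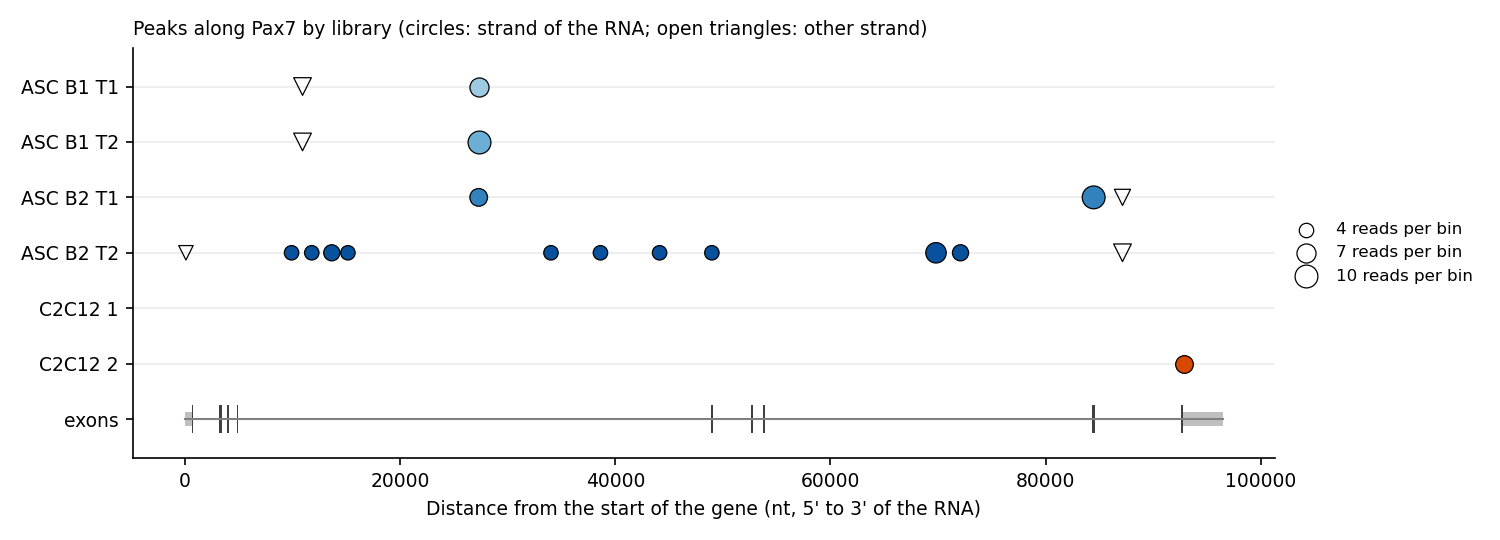
Peaks along Pax7 by library, with the distance from the start of the gene in nt on the x axis and 1 row per library. Circles are peaks on the strand of the RNA, open triangles peaks on the other strand, and the area grows with the reads per 20-nt bin. The site at 27294 nt is listed in 3 ASC libraries, the 10 circles of ASC B2 T2 have no partner in another library, and C2C12 has 1 peak.

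Six4, a homeobox factor that acts on early muscle genes, carried the most peaks of the 9. It lies on the minus strand at chr12:74201246-74214401 and has 3 exons in its main transcript. C2C12 replicate 1 had 17 peaks on the strand of the RNA and replicate 2 had 22. Of these 12 were shared, 70.6% of those in replicate 1. The ASC libraries had a single Six4 peak, of 5 reads in B2 T2 in exon 1. Of all protein-coding genes, 359 (1.6%) had at least 12 shared peaks, and the median over genes with any was 2. Per kilobase of exon, Six4 had 2.13 shared exonic peaks, a density reached by 457 genes (2.04%). The median density of the 3608 genes with a shared exonic peak was 0.503.

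All 12 shared peaks of Six4 lay in exons, which cover 42.7% of the gene. Coding sequence held 9 and the 3′UTR 3. Exon 1 had 2 shared peaks, exon 2 had 2 and exon 3 had 8. The first exon peak, at chr12:74213861-74213900, had 9 reads per bin in replicate 1 and 12 in replicate 2 (10.5 ± 2.12, SD, n = 2). The other of exon 1, at chr12:74213421-74213440, had 8 and 10 reads. In exon 2 the shared peaks had 6.5 and 10 reads at chr12:74210201-74210240 and 7 and 6.5 reads at chr12:74209841-74209880. No shared peak of these exons had more than 12 reads.

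The 8 shared peaks of exon 3 fell within 900 nt around the stop codon, from 681 nt upstream of it to 199 nt downstream. The most upstream one, at chr12:74205101-74205120, had 13 reads in replicate 1 and 12 in replicate 2 (12.5 ± 0.707, SD, n = 2) and was the only shared peak of any member with a p-value of at most 0.00001 in both replicates. Further downstream, chr12:74204841-74204860 had 14 and 8 reads (11 ± 4.24, SD, n = 2), 421 nt upstream of the stop codon. In the 3′UTR, chr12:74204221-74204240 had 9 and 15 reads (12 ± 4.24, SD, n = 2), the highest count in replicate 2. The other 5 shared peaks of exon 3 had 6 to 10 reads. Upstream of the stop codon, chr12:74204921-74204960 had 10 and 7 reads, chr12:74204881-74204900 had 8 and 6, and chr12:74204481-74204520 had 7 and 6. Downstream of it, chr12:74204381-74204400 had 9 and 7 reads and chr12:74204281-74204300 had 9 in each replicate. Among the peaks of exon 3 the difference between replicates was at times as large as the difference between peaks, so that their order is not settled. The last 2975 nt of the 3′UTR had no shared peak, and in it replicate 2 alone listed 2, of 7 and 8 reads.

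Of the 5 peaks of replicate 1 in Six4 that were not shared, 3 started within 100 nt of a peak of replicate 2. Replicate 2 had 22 peaks in Six4, and such nearness was not measured over all genes. At 1 of these replicate 1 peaks, chr12:74204601-74204620 with 10 reads, replicate 2 had a peak of 8 reads in the next bin. If neighbouring bins were counted as shared, Six4 had 13. The 3 Six4 peaks in introns were each listed in 1 replicate, and all 3 had a sequence of several genomic copies.

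**Figure D3:**
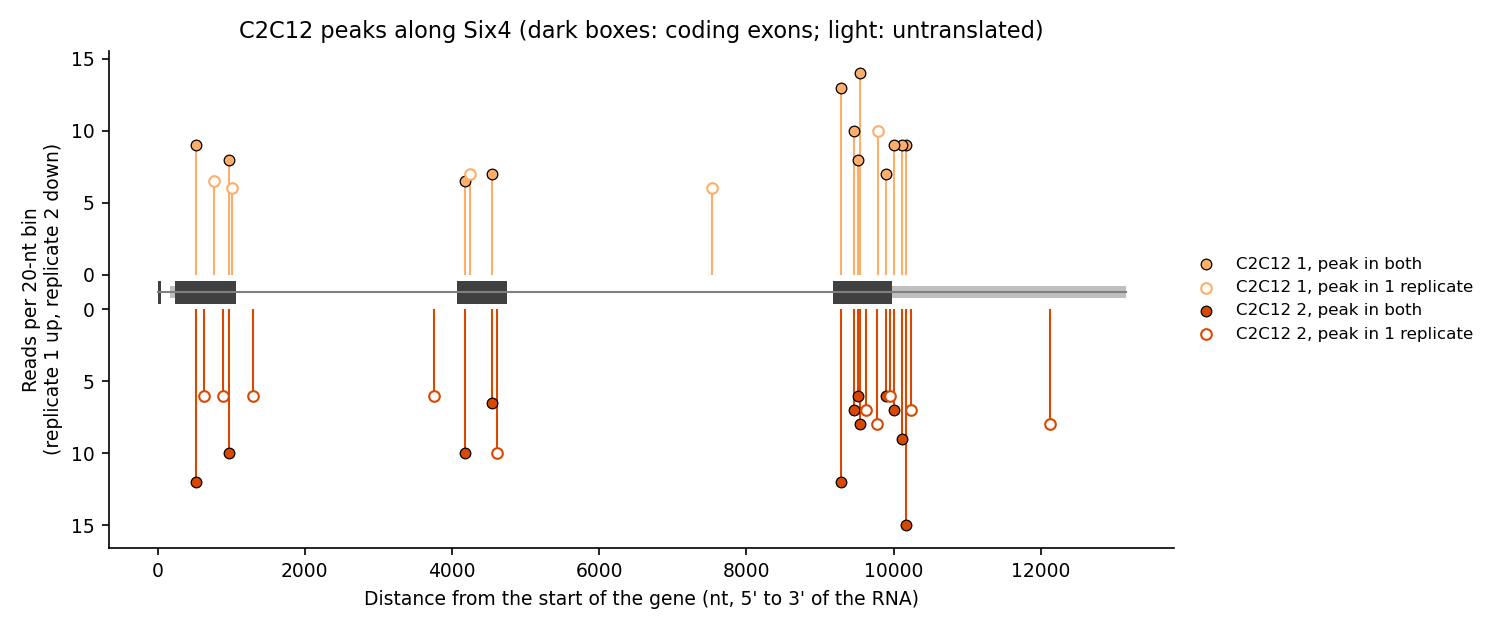
C2C12 peaks along Six4, with the distance from the start of the gene in nt on the x axis and reads per 20-nt bin on the y axis, replicate 1 upwards and replicate 2 downwards. Filled points are peaks called in both replicates, open points peaks of 1 replicate, and boxes are exons. The 12 filled pairs sit on the exons, and 8 of them crowd around the end of the coding sequence in exon 3.

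Myf5 and Myod1, which commit cells to the muscle lineage, are short genes with 3 exons. Myf5 lies on the minus strand at chr10:106919964-106923190. Each C2C12 replicate listed the same 2 Myf5 peaks, both in exon 1. The coding one, at chr10:106922941-106922960, had 8 reads in replicate 1 and 6 in replicate 2 (7.0 ± 1.41, SD, n = 2). The one in the 5′UTR, at chr10:106923021-106923040, had 6 reads in each, the lowest size that the lists hold. The 2 peaks were 239 and 159 nt from the start of the gene, on either side of the start codon. Both fell out when at least 8 reads were required in each replicate. The ASC libraries had a single Myf5 peak, of 6 reads in B2 T1 in the 3′UTR. Its window holds a run of 22 T, and its 20-nt sequence occurs 9 times in the genome, so that reads of other places may have been counted there.

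Myod1 lies on the plus strand at chr7:53631844-53634462. It had peaks in 5 of the 6 libraries and none that both C2C12 replicates called. C2C12 replicate 1 listed 5 Myod1 peaks and replicate 2 listed 3, while the ASC libraries had 0, 2, 1 and 6. Together they formed 15 sites over 1854 nt of exon, none in an intron, and 13 were listed in 1 library. The highest was chr7:53632421-53632440, in the coding part of exon 1, with 14 reads in C2C12 replicate 1 and 8 in ASC B2 T2. C2C12 replicate 2 did not list it, although 77.5% to 79.6% of all peaks of at least 10 reads in protein-coding genes were found again in the other C2C12 replicate. The nearest peak of replicate 2 started 80 nt away and had 7 reads. At chr7:53634061-53634080 in the 3′UTR, C2C12 replicate 2 listed 7 reads and ASC B2 T2 listed 4. Of the 5 peaks of C2C12 replicate 1, 3 started within 40 to 80 nt of a peak of replicate 2. Both replicates thus had peaks in the coding sequence of exon 1 and in the 3′UTR of Myod1, but not at the same bins, and only replicate 1 had one in the coding sequence of exon 3. Of the 5 unshared replicate 1 peaks of Mef2a and the 5 of Mef2d, 0 lay within 100 nt of a replicate 2 peak. Such nearness was not measured over all genes. Of the 6 Myod1 peaks of ASC B2 T2, 4 had 4 reads, and without that library 3 ASC sites were left.

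Myog, the factor of terminal differentiation at chr1:136186581-136189124, had no peak in any of the 6 libraries on either strand. Its exons add up to 1479 nt, the fewest of the 9 genes. A gene without peaks may have been bound below the lowest size that the lists hold, which is 4 to 6 reads per bin.

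**Figure D4:**
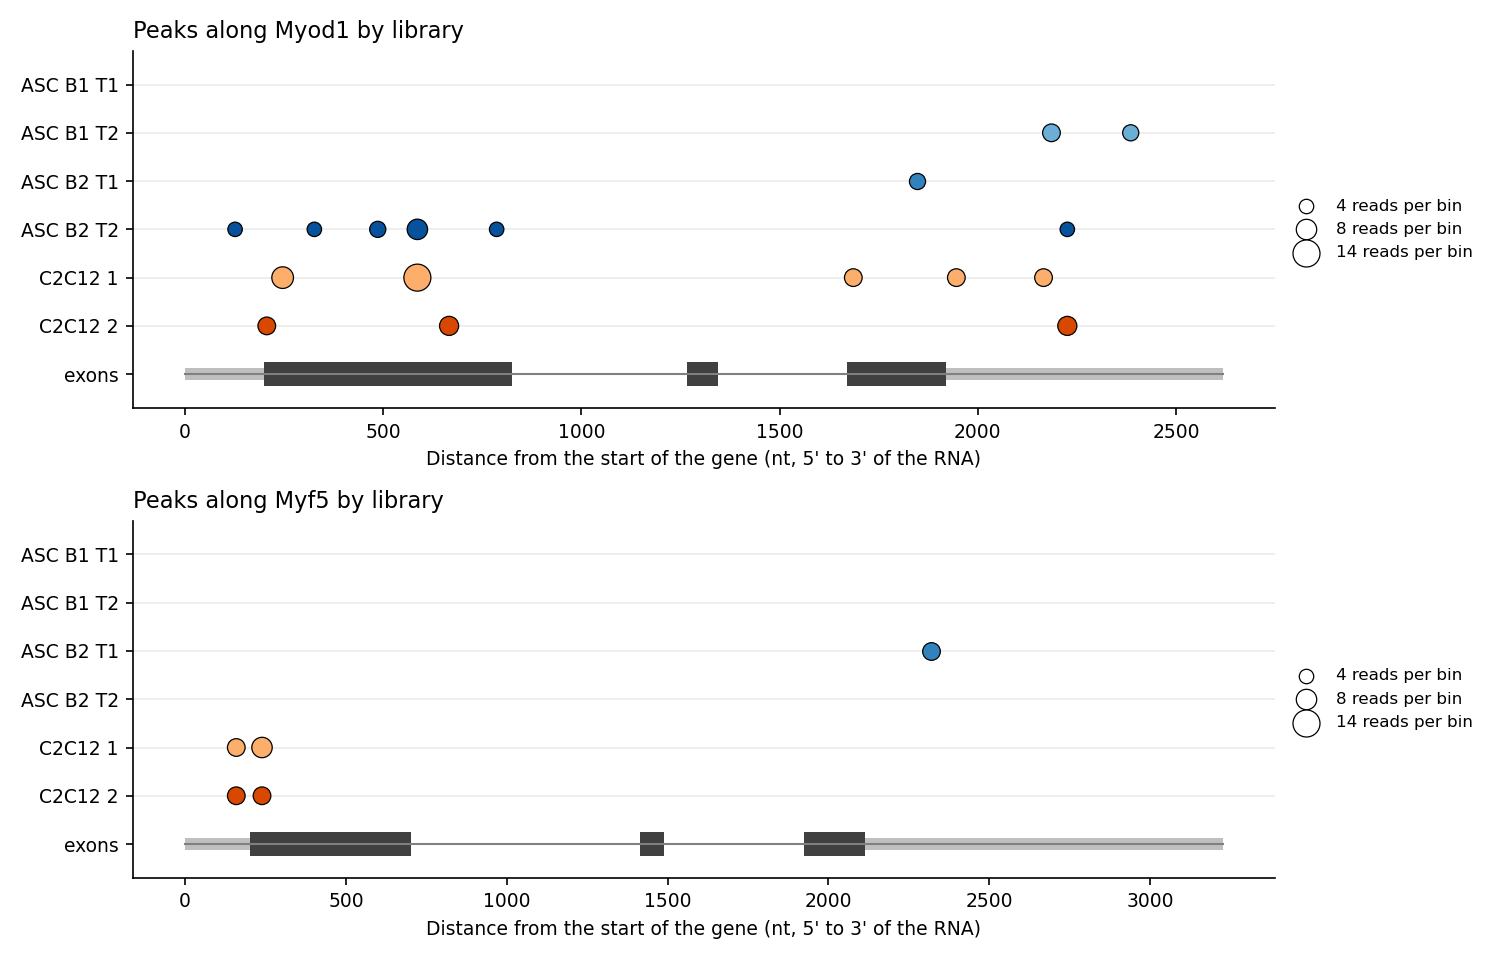
Peaks along Myod1 (top) and Myf5 (bottom) by library, with the distance from the start of the gene in nt on the x axis, 1 row per library, and the area of a point growing with reads per 20-nt bin. In Myf5 the 2 C2C12 rows match at both peaks. In Myod1 they do not match at any, and the site of 14 reads in C2C12 replicate 1 has a partner of 8 reads in ASC B2 T2.

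Mef2d was the Mef2 gene with the most peaks. It lies on the plus strand at chr3:87946294-87976008, and exons cover 20.1% of it. C2C12 replicate 1 listed 9 peaks and replicate 2 listed 14, of which 4 were shared. Of the shared peaks 3 were intronic. In intron 1, chr3:87948401-87948420 had 11 reads in replicate 1 and 6 in replicate 2 (8.5 ± 3.54, SD, n = 2). Also in intron 1, chr3:87954701-87954720 had 6 and 7 reads, and it was listed in ASC B2 T2 with 5. It was the only site in the 9 genes that both C2C12 replicates and an ASC library called. In intron 3, 414 nt from the nearest exon, chr3:87960861-87960880 had 6 and 7 reads. The coding peak, at chr3:87960341-87960360 in exon 3, had 8 reads in each replicate and was the only Mef2d peak left when at least 8 reads were required in both.

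In the 3′UTR of Mef2d, which several transcripts extend, C2C12 replicate 1 listed 2 peaks and replicate 2 listed 5, and none was shared. The largest of replicate 2 had 10 reads, at chr3:87972621-87972640 and chr3:87973321-87973340. The nearest that a peak of replicate 1 in Mef2d which was not shared came to one of replicate 2 was 320 nt. ASC B2 T2 had 3 Mef2d peaks and B2 T1 had 1, and the B1 libraries had none. The highest ASC peak, of 8 reads in B2 T2 alone, lay in intron 3, 56 nt before an exon, at chr3:87961881-87961900. Its sequence occurs 2 times in the genome. A non-coding gene on the minus strand overlaps the last part of Mef2d, and no peak lay on its RNA strand within Mef2d.

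**Figure D5:**
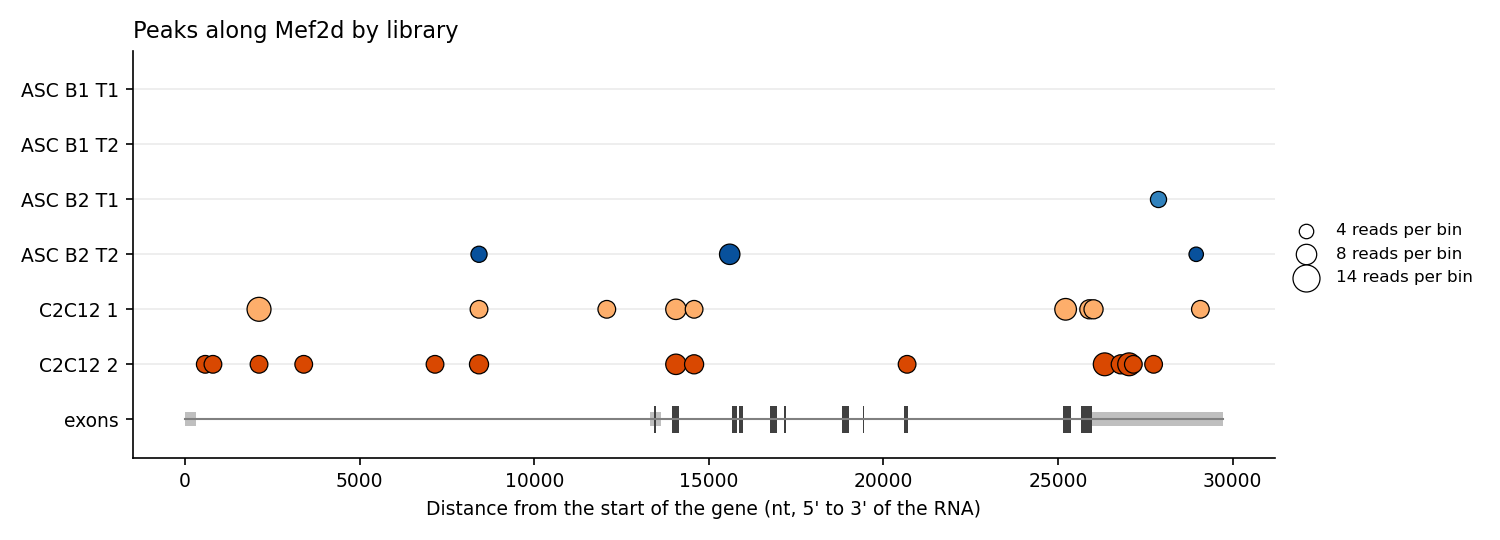
Peaks along Mef2d by library, with the distance from the start of the gene in nt on the x axis, 1 row per library, and the area of a point growing with reads per 20-nt bin. The 4 shared C2C12 peaks lie in the first part of the gene, up to 14576 nt, while the 7 C2C12 sites of the 3′UTR each appear in 1 row.

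Mef2a lies on the minus strand at chr7:74376049-74517744, and 4.47% of it is exonic. Each C2C12 replicate listed 6 peaks, 5 of them intronic, and 1 was shared. The shared peak, at chr7:74474521-74474540 in intron 2, had 7 reads in each replicate, and its sequence occurs 2 times in the genome. Of the 16 Mef2a sites, 5 had a sequence of several copies, among them a C2C12 replicate 1 peak with 22309 copies and a replicate 2 peak with 8431. In ASCs, B1 T1 and B1 T2 both listed 6 reads at chr7:74482521-74482540 in intron 2, another sequence with 2 copies, and B2 T2 listed 4 peaks of 4 or 5 reads. Mef2c, at chr13:83643033-83806684, had no C2C12 peak and a single peak on the strand of the RNA, of 4 reads in ASC B2 T2. On its other strand B1 T1 listed 8 reads and B1 T2 listed 5 at chr13:83778301-83778320 in an intron. The window of that site holds a run of 12 A on the strand opposite to the reads. With 5 shared peaks in the Mef2 genes in all, no share by position can be given with precision.

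By position, 11 of the 19 shared peaks of the members lay in coding exons (57.9%, exact 95% interval 33.5% to 79.7%), 3 in 3′UTRs (15.8%), 1 in a 5′UTR and 4 in introns (21.1%, 6.05% to 45.6%). Of 19006 shared peaks in all protein-coding genes, 43.6% lay in coding exons, 19.5% in 3′UTRs and 31.0% in introns. The intervals of the members include these shares, but they treat peaks as independent, although 12 of the 19 lay in Six4. Six4 gave 9 of the 11 coding peaks, and without it 2 of 7 were coding and 4 were intronic. Of the 33 ASC sites of the members 8 were coding, 6 in 3′UTRs, 3 in 5′UTRs and 16 intronic. Without B2 T2, 2 of 8 were coding, 4 in 3′UTRs and 2 intronic.

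For the shared peaks of the members the median in replicate 1 was 8 reads per bin, which was also the median over all shared peaks in protein-coding genes. Their highest had 14 reads, and the highest of all had 54. Of the 39 peaks of replicate 1, 19 were found again (48.7%, 32.4% to 65.2%), against 45.3% over protein-coding genes. Of the 49 of replicate 2, 38.8% were (25.2% to 53.8%), against 41.1%. Without Six4, 7 of 22 peaks of replicate 1 were found again (31.8%, 13.9% to 54.9%), and 7 of 27 of replicate 2 (25.9%, 11.1% to 46.3%).

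The shared peaks were also searched for the m6A consensus, on the strand of the RNA and within 20 nt of peaks 1 bin wide. Of 16 such peaks in the members, 5 held a word of the consensus (31.2%, 11% to 58.7%), against 48.7% of 16918 shared peaks in protein-coding genes. The 4-letter word GGAC, which 3 of the 12 words contain, was found at 4 (25.0%, 7.27% to 52.4%), against 19.1%. Among these peaks, those with GGAC were the 3′UTR peak of Six4 at chr12:74204221-74204240, both Myf5 peaks and the coding peak of Mef2d. The wider shared peaks, all in Six4, were left out of these shares. Within 20 nt, and so over a longer window, chr12:74204481-74204520 and chr12:74213861-74213900 each held GGAC and a word of the consensus. The wider peak at chr12:74210201-74210240 held neither. A match of letters is not a methylated site, and m6A was not measured in these libraries. A run of 10 or more G in the reads within 20 nt was found at no peak of the members. Over all peaks, inside or outside genes, 8.31% to 13.2% of an ASC library had such a run. In the C2C12 libraries, which gave most member peaks, 1.17% and 1.03% had one.

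Other regulators of the muscle programme were counted in the same way. Of 45 such genes, 23 had a shared C2C12 peak (51.1%, against 21.4% of all protein-coding genes), and they had 194 shared peaks together. The 5 with the most were Nfix, a factor of fetal muscle, with 50, Tead1, a TEA-domain partner of the Hippo pathway, with 39, Rbpj, the DNA-binding effector of Notch signals, with 17, Mkl1, a coactivator of serum response factor, with 15, and Tcf4, a basic helix-loop-helix partner of the myogenic factors, with 11. The first 4 of these had at least as many as Six4.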

How the data were processed

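Deposited Piranha peak lists of 6 YTHDC1 LACE-seq libraries were analysed. The authors trimmed reads with Cutadapt 1.15, removed pre-rRNA reads, aligned the rest to mm9 with Bowtie 1.2.3, keeping several positions per read, and called peaks per library, without pooling, in bins of 20 nt. These peak settings are stated for ASCs, and the treatment of duplicate reads is not given in the sources used here. Multiple placement can add 1 read to several copies of a sequence. The deposited signal of a peak is its reads per bin, not normalized, or their mean where a peak spans several bins. Piranha's p-value, also deposited, was computed within each library, is unadjusted and reaches at most 0.000167 to 0.000995 by library.

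Peaks were placed in GENCODE M1 genes on NCBIM37, which is mm9, with Python 3.11.15, pandas 2.3.3 and pysam 0.24.0. No peak ended beyond its chromosome. A peak took the first class that it touched, in the order coding exon, 3′UTR, 5′UTR, other exon and intron, over all transcripts. Exons were numbered on the transcript with the longest coding sequence. Peaks with 10 or more consecutive G in the read strand within 20 nt were left out, also from the counts over all genes. Copies of a peak are the occurrences of its 20-nt sequence on either strand of mm9. Shares carry exact Clopper-Pearson 95% intervals, which cover counting error only and treat the peaks or genes counted as independent. No test was run between cell types or genes, and values of 2 C2C12 replicates measure the spread between those libraries, which may be technical. The functions passed 10 of 10 checks on simulated lists of 4000 peaks. All 9 genes were to be named, with each site called in both C2C12 replicates or in at least 2 ASC libraries and the 5 other regulators with the most shared peaks, and any further site was picked after its values were seen. The 9 genes, the list of 45 regulators and the comparisons were chosen with earlier results of these data known, and 1 further gene of that list is not reported here. Alternatives changed the overlap, the p and read thresholds, the libraries required, the G-run rule, the copies allowed and the order of classes.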

Additional observations from a re-analysis of the deposited data

Results flagged for a closer look

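Each ASC count was examined for a library far from the other 3, by its gap to the nearest library over the range of the 4. The rule marked 7 of 13 groups. Its rate of about 1 group in 20 by chance is meant for independent, continuous values. These counts are small and often tied, and the totals contain the counts of the genes. The number of marked groups is therefore not read against that rate. The total on the strand of the RNA (2, 4, 5 and 25 peaks) had a ratio of 0.87, and Pax7 (1, 1, 2 and 10) had 0.889, in each case for B2 T2, the library with the most peaks and the lowest listed size. The total on the other strand (2, 2, 1 and 2) had a ratio of 1.0 for B2 T1. The other marked counts hang on a single peak against a constant in the remaining libraries and have a ratio of 1.0: the Myf5 peak of B2 T1, the Mef2c and Six4 peaks of B2 T2, and the second Pax7 peak of B2 T2 on the other strand.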

How the results depend on the processing

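The counts for C2C12 depended on the p and read thresholds and on whether both replicates were required. Members with a shared peak fell from 4 to 2 at p of at most 0.0001, to 2 at 8 reads per bin or more, and to 1, or 11.1% of members, at p of at most 0.00001. The first 2 of these settings are nearly the same cut. In C2C12 the Piranha p-value of a peak 1 bin wide first falls to 0.0001 or less at 8 reads. Shared peaks in the members fell from 19 to 7, 7 and 1 under these settings, and those in coding exons from 11 to 5, 5 and 1. The same share over all protein-coding genes fell to 11.2%, 11.6% and 5.98%. With either replicate alone, 5 to 7 members had a peak, with 39 to 49 peaks, 20 to 21 of them coding. Without Six4, an exclusion chosen after the data were seen, 7 shared peaks were left and 2 were coding. The list that was counted, neighbouring bins, unique sequences and the order of classes kept each of these counts within 1.5 times. Mef2a lost its shared peak when unique sequence was required. Neither an overlap of 10 nt nor the other G-run rules could change the counts of the members. Their peaks lie on 1 grid of 20-nt bins, so that any overlap is at least 1 whole bin. No G run near a member site was longer than 7. The 33 ASC sites became 8 at p of at most 0.0001, 18 at 5 reads or more in every library (chosen after the data were seen), 2 when both technical replicates were required and 0 when all 4 libraries were. With 1 ASC library left out they ranged from 8, without B2 T2, to 33. No paired analysis was possible because no result comes from a test.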
